A study of Mus musculus with 58 samples.

Results

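The comparison of Kmt5b HT with WT mice under vehicle used 20 of the 58 libraries of a series on prefrontal cortex, 10 labelled HT vehicle and 10 labelled WT vehicle. These were chosen by genotype and treatment label alone. Of 18088 genes in the table, the 16669 with a mean normalised read count of at least 10 were tested. HT mice were heterozygous for Kmt5b and WT mice were wild-type, both of the C57BL/6J strain, with 5 females and 5 males in each group. All 20 were given vehicle by way of the mother's milk for 3 weeks, from postnatal day 3 to 24, and the tissue was collected on day 25. The targeted allele, the composition of the vehicle and the litters are not given in the sources used here. The other 38 libraries came from HT and WT mice given fluoxetine, an antidepressant that blocks serotonin reuptake, or lithium, a mood stabiliser. RNA was sequenced after poly(A) selection with a stranded kit.

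Kmt5b encodes a lysine methyltransferase of histone H4, which adds further methyl groups at lysine 20 once the first is in place. Methylation at this lysine is read by proteins of DNA repair and replication. Variants of the human gene are associated with autism and intellectual disability.

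Recovered reads ranged from 24.2 to 34.0 M in HT and from 24.3 to 31.5 M in WT libraries. Summed markers of excitatory neurons, the main neurons of cortex, were 158999 to 205015 in HT and 171138 to 211448 in WT libraries, and none of these markers was at 0 in all 20. Some libraries stood apart. The mean log2 level of Eomes, Tbx21, Cdhr1 and Doc2g, markers of olfactory bulb neurons, lay between 7.44 and 10.04 in HT and between 3.87 and 9.50 in WT libraries. WT female 3, WT male 1 and WT male 5 were lowest, at 3.87, 5.01 and 4.198. The level of 6 striatal markers was 9.07 in WT female 5, while the other 9 WT libraries reached at most 8.25. The labels do not say that replicates came from separate litters, so the p-values measure the spread between samples, part of which may be technical. For the limma tests that spread was taken over all 58 libraries of the series. In bulk tissue, fewer cells of a type and less RNA per cell cannot be told apart.

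Kmt5b itself (ENSMUSG00000045098, on chromosome 19 from 3767421 to 3818303) was not lower in the libraries labelled HT. Its normalised count ran from 1576 through a median of 1697 to 1831 in HT libraries, against 1428, 1587 and 1797 in WT libraries. The genotypes overlapped over most of their range. The log2 difference, HT minus WT, was 0.08 (SE 0.0427), with a limma adjusted p of 0.435 and an exact two-sided permutation p of 0.0709 with libraries exchanged within sex. The difference was 0.04 (adjusted p = 0.926) without the 3 WT libraries low in olfactory bulb markers and 0.05 (adjusted p = 0.923) without all 4 that stood apart. The table has 1 value per gene, which cannot separate transcripts of an intact allele from those of a targeted one. HT and WT therefore mean libraries so labelled throughout, and each direction rests on the labels. Differences of other genes, given in parentheses before an adjusted p, are on the same log2 scale and in the same direction.

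Of 13 writers, erasers and readers of H4 lysine 20 methylation, none passed, and 2 (15.4%) had an unadjusted p under 0.05, beside 12.2% of all genes. Kmt5c, the sister methyltransferase, averaged 525.6 ± 30.9 in HT and 476 ± 58.5 in WT libraries (SD, n = 10 each), a log2 difference of 0.15 (adjusted p = 0.395). Phf20l1, a reader of methylated lysine, differed by -0.18 (adjusted p = 0.163). Of 52 genes tested within 1 Mb of Kmt5b, 31 were higher and 21 lower, none passed, and 3 (5.77%), all higher in HT, had an unadjusted p under 0.05. Among these were Clcf1 (0.40, adjusted p = 0.268), a cytokine of the interleukin 6 family, and Rce1 (0.12, adjusted p = 0.296), a protease that trims prenylated proteins.

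Few genes passed. At an adjusted p under 0.05 (limma with Benjamini-Hochberg adjustment over all genes tested), 5 genes rose and 3 fell in HT, 0.048% of those tested. Pisd-ps1, Matn2, Tmem28, P4ha3 and 1 predicted gene rose, and Slco1a4, Asah1 and Rnf141 fell. At an unadjusted p under 0.05 there were 2035 genes (12.2%), of which 780 were higher in HT (4.68%) and 1255 lower (7.53%). The 10 HT and 10 WT libraries did not overlap for 2 genes, 0.012% of those tested, and for both, Pisd-ps1 and P4ha3, HT lay above WT. Over all genes the median absolute log2 difference was 0.0605 and the median SE 0.0651. Of the genes at an unadjusted p under 0.05, 70 differed by more than 1.5-fold.

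**Figure D1:**
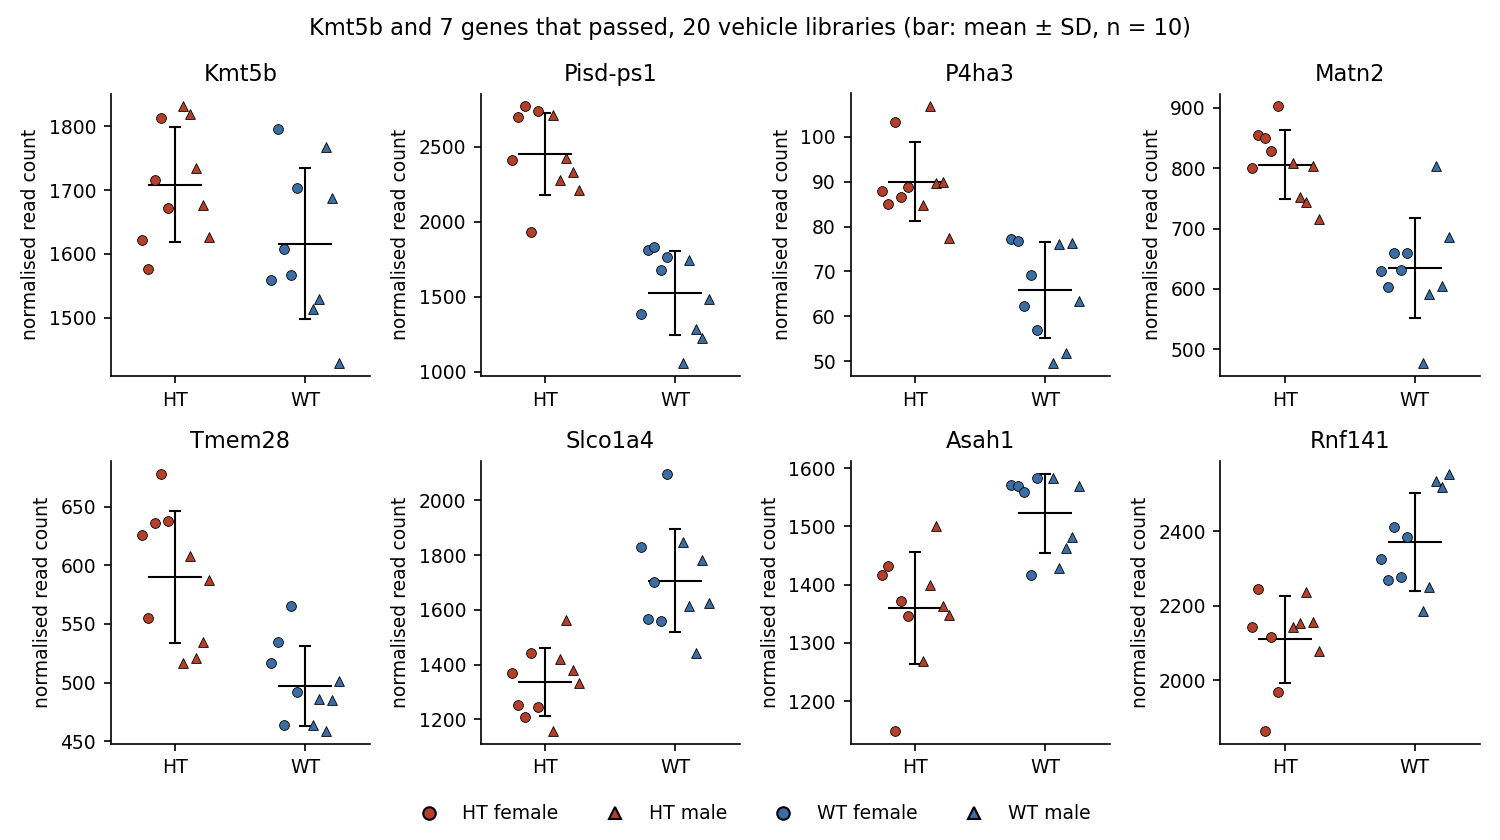
Normalised read count (vertical axes, not starting at 0) of Kmt5b and the 7 named genes that passed, in each vehicle library, with HT left of WT. Circles are females, triangles are males, and bars give the mean ± SD of 10 libraries. Kmt5b overlaps between the genotypes, and Pisd-ps1 and P4ha3 do not.

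Pisd-ps1, on chromosome 11 from 3125904 to 3131004, is a transcribed pseudogene of Pisd, which encodes the mitochondrial decarboxylase that turns phosphatidylserine into phosphatidylethanolamine. Its normalised count ran from 1935 through a median of 2417 to 2769.7 in HT libraries, against 1058, 1583 and 1836 in WT libraries. Every HT library stood above every WT library. The log2 difference was 0.70 (SE 0.114, adjusted p = 0.00133), a fold of 1.62, with 0.56 in females and 0.83 in males. A second transcribed pseudogene, Pisd-ps2 on chromosome 17, averaged 377 ± 44.7 in HT and 288 ± 43.2 in WT libraries (SD, n = 10 each), a difference of 0.39 that did not pass (adjusted p = 0.0710). Pisd averaged 1879 ± 87.0 in HT and 1749 ± 89.0 in WT libraries (SD, n = 10 each), a difference of 0.10 (adjusted p = 0.268). These copies are near-identical, and quantification can divide reads among them, so which copy differed is uncertain. Of 19 genes of phosphatidylserine and phosphatidylethanolamine synthesis, 4 were higher and 2 lower at an unadjusted p under 0.05, and these 3 copies were among the higher ones. With each of these 3 copies counted as a member, the share was 31.6% of the list, beside 12.2% of all genes. Chpt1, an enzyme of phosphatidylcholine synthesis, differed by -0.18 (adjusted p = 0.210).

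Matn2, on chromosome 15 from 34306677 to 34436273, encodes matrilin 2, an adaptor protein of extracellular matrix networks. Its count ran from 716 through a median of 806 to 903 in HT libraries, against 477, 631 and 804 in WT libraries. WT male 3, the highest WT library, was the WT library that reached into the HT range. The log2 difference was 0.35 (SE 0.0724, adjusted p = 0.0394), a fold of 1.28, with 0.41 in females and 0.29 in males. It did not pass at 0.32 (adjusted p = 0.250) without the 3 WT libraries low in olfactory bulb markers and 0.33 (adjusted p = 0.313) without all 4 that stood apart. P4ha3, on chromosome 7 from 100285520 to 100319699, encodes a catalytic subunit of prolyl 4-hydroxylase, which hydroxylates collagen chains so that their triple helix is stable. Its counts were low and ran from 77.4 through a median of 88.4 to 107 in HT libraries, against 49.5, 66.3 and 77.2 in WT libraries. The lowest HT library was only just above the highest WT library. The log2 difference was 0.46 (SE 0.0957, adjusted p = 0.0394), a fold of 1.37. Without the 3 and the 4 WT libraries it was 0.39 (adjusted p = 0.409) and 0.34 (adjusted p = 0.652), and it was 0.36 (adjusted p = 0.102) with the olfactory bulb level in the fit. Tmem28, on chromosome X from 99821021 to 99848790, encodes a transmembrane protein, and its count ran from 517 through a median of 598 to 678 in HT libraries, against 459, 489 and 566 in WT libraries. Here 6 of 10 HT libraries stood above all WT libraries, and the log2 difference was 0.24 (SE 0.0514, adjusted p = 0.0394). Without the 3 and the 4 WT libraries it was 0.23 (adjusted p = 0.292) and 0.21 (adjusted p = 0.462). With the olfactory bulb level in the fit Matn2 stood at 0.30 (adjusted p = 0.0929) and Tmem28 at 0.19 (adjusted p = 0.0968), so that none of these 3 genes passed in any of those 3 fits.

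Slco1a4, on chromosome 6 from 141805440 to 141856199, encodes an organic anion transporter of brain endothelium that carries bile acids and steroid conjugates. Its count ran from 1158 through a median of 1352 to 1564 in HT libraries, against 1443, 1664 and 2097 in WT libraries. Of the HT libraries, 9 of 10 lay below all WT libraries. It fell by 0.35 on the log2 scale (SE 0.0576, adjusted p = 0.00133), a fold of 0.785. Without the 3 WT libraries low in olfactory bulb markers the difference was -0.33 (adjusted p = 0.0410), and without all 4 that stood apart it was -0.29 and did not pass (adjusted p = 0.183). Asah1, on chromosome 8 from 41340197 to 41374773, encodes acid ceramidase of the lysosome, which splits ceramide into sphingosine and a fatty acid. Its count ran from 1149 through a median of 1368 to 1501 in HT libraries, against 1417, 1564 and 1584 in WT libraries. It fell by 0.17 (SE 0.0345, adjusted p = 0.0394), a fold of 0.892. Without the 3 and the 4 WT libraries the difference was -0.14 (adjusted p = 0.409) and -0.13 (adjusted p = 0.612). Rnf141, on chromosome 7 from 110800432 to 110844457, encodes a RING finger protein, with counts from 1865 through a median of 2143 to 2246 in HT libraries, against 2185, 2355 and 2554 in WT libraries. It fell by 0.17 (SE 0.0350, adjusted p = 0.0394), a fold of 0.890. Without the 3 and the 4 WT libraries the difference was -0.17 (adjusted p = 0.162) and -0.16 (adjusted p = 0.313). With the olfactory bulb level in the fit Asah1 stood at -0.16 and Rnf141 at -0.16 (adjusted p = 0.0668 for both), and neither passed in any of those 3 fits. For both genes 8 of 10 HT libraries lay below all WT libraries.

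Which genes passed depended on single libraries. Pisd-ps1 and Slco1a4 passed whichever of the 20 libraries was left out, and the other 5 named genes passed in 5 to 8 of these 20 fits. The number passing was 25 without HT male 3, 17 without HT female 1, 14 without HT female 4 and 22 without WT male 2. It was 2 to 4 on leaving out any one of HT female 3, HT female 5, HT male 1, HT male 2, HT male 4, HT male 5, WT female 1, WT female 2, WT female 3, WT female 5, WT male 1, WT male 4 and WT male 5. It was 2 without the 3 WT libraries low in olfactory bulb markers and 0 by limma without all 4 that stood apart, where 469 genes were higher and 544 lower at an unadjusted p under 0.05. In that last fit Pisd-ps1 stood at 0.70 (adjusted p = 0.0667). In a limma fit of the vehicle libraries alone Slco1a4 did not pass (adjusted p = 0.0691), while Pisd-ps1 did (adjusted p = 0.000487). On the 54 libraries with recovered counts, Slco1a4 did not pass by edgeR with TMM (-0.30, adjusted p = 0.0685) and passed by DESeq2 (-0.30, adjusted p = 0.0111).

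The 12 higher and 12 lower genes of smallest p with the same sign in both sexes include 17 that did not pass, with adjusted p-values up to 0.0813. Among the higher ones, Top3a (0.32, adjusted p = 0.0551) encodes a DNA topoisomerase that also works on mitochondrial DNA. Kif22 (0.48, adjusted p = 0.0813) is a motor protein that binds chromosomes, and Nfya (0.24, adjusted p = 0.0813) is a subunit of NF-Y, the factor that binds the CCAAT box. Among the lower ones, Tdp2 (-0.21, adjusted p = 0.0631) removes topoisomerase from DNA ends, and Zfp367 (-0.26, adjusted p = 0.0551) is a zinc finger protein. Fli1 (-0.33, adjusted p = 0.0639), an ETS transcription factor of endothelial and blood cells, averaged 131 ± 10.9 in HT and 165 ± 18.2 in WT libraries (SD, n = 10 each). Aldh1a1 (-0.36, adjusted p = 0.0639), which makes retinoic acid from retinaldehyde, averaged 894 ± 117 in HT and 1164 ± 225 in WT libraries (SD, n = 10 each). Dnajc10 (-0.17, adjusted p = 0.0639) is a chaperone of the endoplasmic reticulum, and Ahcyl1 (-0.11, adjusted p = 0.0639) regulates inositol trisphosphate receptors.

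**Figure D2:**
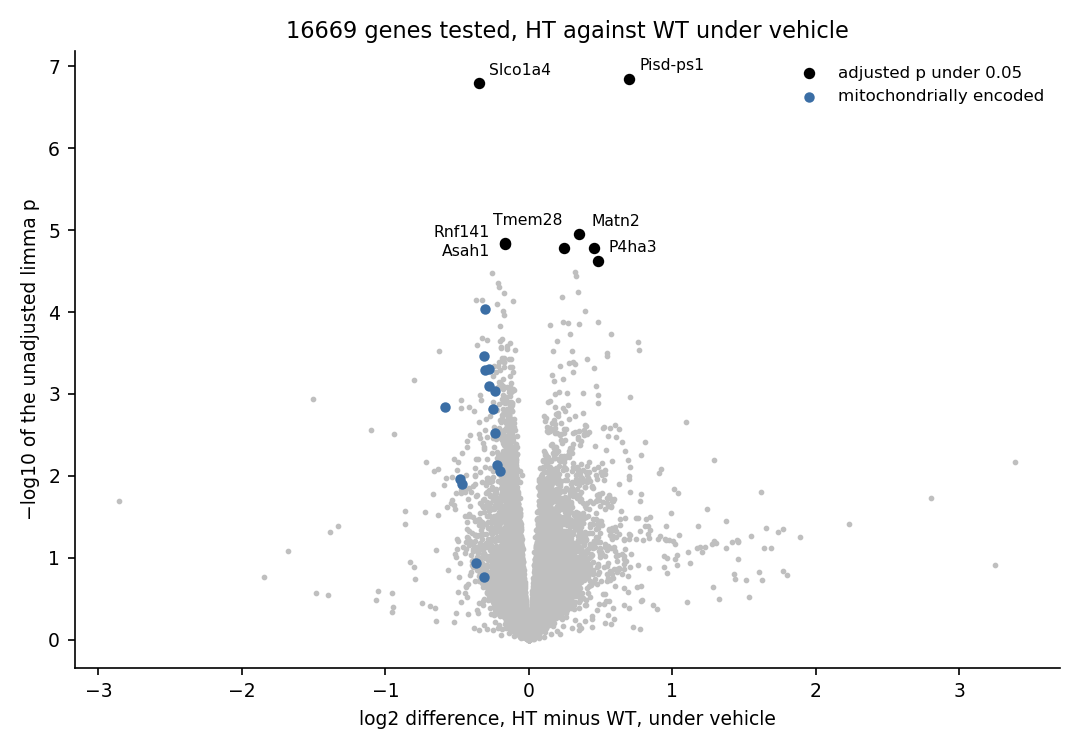
Log2 difference, HT minus WT under vehicle (horizontal axis), against -log10 of the unadjusted limma p (vertical axis) for 16669 genes. Black points are the 8 genes that passed, 7 of them with their names, and blue points are the 15 mitochondrially encoded genes, all left of 0.

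Collagens and the enzymes that modify them were mostly higher in HT. Of 35 tested, 28 were higher and 7 lower, 12 were higher and 0 lower at an unadjusted p under 0.05, and P4ha3 passed. These 12 were 34.3% of the list, beside 12.2% of all genes. The median log2 difference was 0.16, beside 0.0012 over all genes, of which 50.7% were higher. Col16a1, a collagen that associates with fibrils, ran from 698 through a median of 758 to 825 in HT libraries, against 452, 618 and 812 in WT libraries (log2 difference 0.33, adjusted p = 0.0554). Only 1 HT library stood above all WT libraries, and 9 of 10 WT libraries lay below all HT libraries. Col5a1, a chain of the collagen that nucleates fibrils, ran from 715 through a median of 891 to 1095 in HT libraries, against 518, 756 and 898 in WT libraries (log2 difference 0.34, adjusted p = 0.0639). Col6a2, a chain of microfibrillar collagen, averaged 718 ± 86.9 in HT and 560.4 ± 51.0 in WT libraries (SD, n = 10 each), a log2 difference of 0.35 (adjusted p = 0.0813). The list median was 0.15 and 0.17 without the 3 and the 4 WT libraries, and 0.09 with the olfactory bulb level in the fit.

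Matrix glycoproteins, proteoglycans and their receptors were also more often higher. Of 42 tested, 31 were higher and 11 lower. At an unadjusted p under 0.05, 7 were higher and 1 lower, 19% of the list beside 12.2% of all genes. Matn2 passed, and the median was 0.09, with 0.03 in females and 0.16 in males. Lamb1, a laminin chain of basement membranes, ran from 608 through a median of 688 to 729.5 in HT libraries, against 519, 567 and 651 in WT libraries (log2 difference 0.23, adjusted p = 0.0639). Cd44 (0.29, adjusted p = 0.224) is a hyaluronan receptor, and Ccdc80 (0.16, adjusted p = 0.215) is a secreted matrix protein. With the share of mitochondrially encoded genes in the fit, the median of this list was 0.02, and with the olfactory bulb level in the fit it was 0.05. Of 19 markers of meninges and fibroblasts, cells that make fibrillar collagen, 14 were higher and 5 lower, with a median log2 difference of 0.05. None of these markers passed and none had an unadjusted p under 0.05. Their summed counts were 19667 to 34703 in HT and 22857 to 35057 in WT libraries, with none at 0 in all 20. Their median log2 difference was -0.08 in females and 0.20 in males. Collagens had a median of 0.11 in females and 0.19 in males. Differences between the sexes in these medians were not tested, and neither was the part of the meningeal markers in the collagen differences.

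The promoters of P4ha3, Col16a1 and Col5a1 are printed as those of the collagen genes and enzymes with the smallest p, and that of Slco1a4 as the promoter of the fallen gene with the smallest p. They come from RefSeq (GRCm38.p6) and run 5′ to 3′ from 250 bases before to 50 bases after a start site. That site is the RefSeq one nearest the annotated start of the gene. The windows are chr7:100285270-100285569 (plus strand), chr4:130047590-130047889 (plus strand), chr2:27886175-27886474 (plus strand) and chr6:141856171-141856470 (minus strand). Capitals mark matches on either strand to the motifs of the CCAAT box (CCAAT), the GC box (GGGCGG) and the TATA box (TATAAA).
P4ha3: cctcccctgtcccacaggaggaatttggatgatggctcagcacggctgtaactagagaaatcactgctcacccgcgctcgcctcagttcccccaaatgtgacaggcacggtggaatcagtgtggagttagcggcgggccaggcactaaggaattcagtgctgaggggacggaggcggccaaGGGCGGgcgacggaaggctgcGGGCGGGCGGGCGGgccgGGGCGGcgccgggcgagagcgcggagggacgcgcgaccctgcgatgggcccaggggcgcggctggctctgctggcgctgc
Col16a1: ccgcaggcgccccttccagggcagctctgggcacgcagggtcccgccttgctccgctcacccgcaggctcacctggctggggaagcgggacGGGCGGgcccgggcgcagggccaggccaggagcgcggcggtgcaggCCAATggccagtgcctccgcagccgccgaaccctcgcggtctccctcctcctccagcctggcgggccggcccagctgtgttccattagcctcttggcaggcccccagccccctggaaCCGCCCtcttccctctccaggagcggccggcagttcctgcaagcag
Col5a1: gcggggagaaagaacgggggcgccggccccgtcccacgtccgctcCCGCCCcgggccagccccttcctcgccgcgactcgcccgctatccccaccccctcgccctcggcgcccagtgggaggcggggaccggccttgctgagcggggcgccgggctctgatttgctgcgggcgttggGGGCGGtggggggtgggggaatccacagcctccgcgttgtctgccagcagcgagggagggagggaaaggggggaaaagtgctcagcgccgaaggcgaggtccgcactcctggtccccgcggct
Slco1a4: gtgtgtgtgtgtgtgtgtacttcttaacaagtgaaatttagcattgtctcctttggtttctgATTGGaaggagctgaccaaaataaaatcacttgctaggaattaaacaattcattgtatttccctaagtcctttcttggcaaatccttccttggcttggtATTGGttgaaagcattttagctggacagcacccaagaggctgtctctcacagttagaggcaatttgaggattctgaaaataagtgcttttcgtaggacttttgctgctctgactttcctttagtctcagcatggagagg

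P4ha3 held GGGCGG 5 times, 3 of them overlapping one another, and Col16a1 and Col5a1 held it 2 times each. CCAAT was present 2 times in Slco1a4, on the opposite strand, and 1 time in Col16a1. Among all promoters in that RefSeq table, 35.7% held GGGCGG, 37.4% CCAAT and 13.6% TATAAA. Of the 24 named genes at the top of each direction, 15 matched the table, and of these 10 held GGGCGG, 7 CCAAT and 1 TATAAA.

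All 15 genes of the mitochondrial genome in the table were lower in HT. None passed, 13 (86.7%, beside 12.2% of all genes) had an unadjusted p under 0.05, and the median log2 difference was -0.31. These genes encode respiratory chain subunits and the ribosomal RNAs of the organelle. mt-Nd6, a subunit of complex I, ran from 1054 through a median of 1334 to 1531 in HT libraries, against 1430.2, 1635 and 1826 in WT libraries (log2 difference -0.31, adjusted p = 0.0710). Of the HT libraries, 7 of 10 lay below all WT libraries. mt-Nd4, another subunit of that complex, differed by -0.31 (adjusted p = 0.111).

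The share of a library on these genes averaged 6.75% ± 0.660 in HT and 7.90% ± 0.700 in WT libraries (SD, n = 10 each). It ran from 6.02% through a median of 6.84% to 7.85% in HT libraries, against 7.27%, 7.53% and 9.05% in WT libraries, so that the ranges overlapped at their edges. The difference was -1.14 percentage points, with an exact two-sided permutation p of 0.00104 (libraries exchanged within sex; 0.00529 adjusted over 6 library measures). Without the 2 ribosomal RNA genes it was -1.05 points. The list median was -0.10 after quantile normalisation, and -0.23 and -0.22 without the 3 and the 4 WT libraries that stood apart. With the share itself in the fit 1 gene passed, Pisd-ps1, Slco1a4 stood at -0.24 (adjusted p = 0.488), and the other named genes that had passed no longer did. Asah1 stood at -0.08 and Rnf141 at -0.10 (adjusted p = 0.988 for both), Matn2 at 0.29 (adjusted p = 0.988), Tmem28 at 0.21 (adjusted p = 0.988) and P4ha3 at 0.41 (adjusted p = 0.910). In that fit the genes at an unadjusted p under 0.05 numbered 384 higher and 361 lower. The part of the share in other genes was not tested.

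Of 51 nuclear genes of oxidative phosphorylation, which supply the other subunits of the same complexes, 28 were higher and 23 lower, none passed, and 1 was lower at an unadjusted p under 0.05. That was 1.96% of the list, beside 12.2% of all genes. The median was 0.0046 over both sexes, 0.08 in females and -0.07 in males, and the difference between the sexes was not tested. Among 22 genes of mitochondrial gene expression and import, none passed. At an unadjusted p under 0.05, 1 was higher and 3 lower, 18.2% of the list beside 12.2% of all genes. Nrf1 (0.17, adjusted p = 0.140) is a transcription factor of nuclear respiratory genes, and Tfb2m (-0.12, adjusted p = 0.257) starts transcription of the mitochondrial genome.

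**Figure D3:**
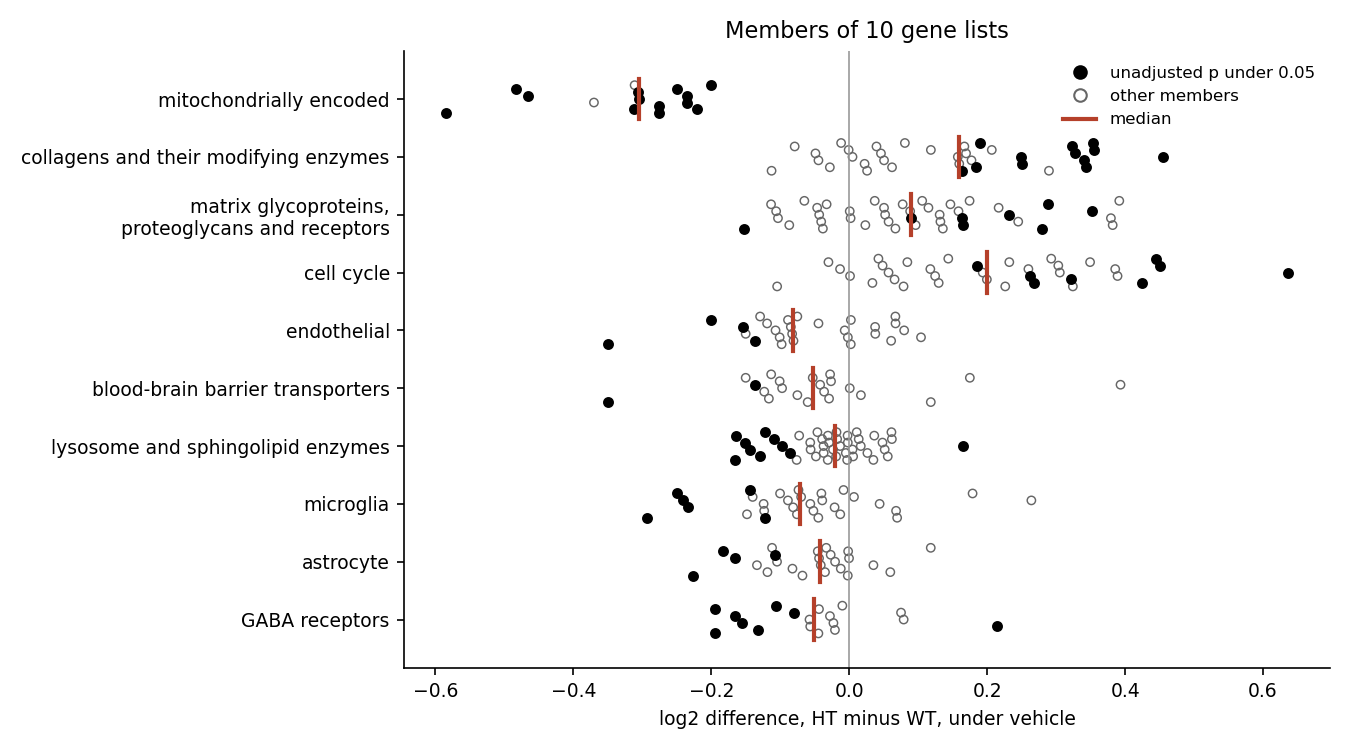
Log2 difference, HT minus WT under vehicle (horizontal axis), of each tested member of 10 gene lists (rows). Filled points had an unadjusted p under 0.05, open points did not, and red bars mark list medians. Mitochondrially encoded genes all lie left of 0, and collagens and cell cycle genes lie mostly right of 0.

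Cell cycle genes were mostly higher in HT. Of 35 tested, 32 were higher and 3 lower. At an unadjusted p under 0.05, 8 were higher and 0 lower, 22.9% of the list beside 12.2% of all genes. None passed, and the median was 0.20. It was 0.23 in females and 0.16 in males, a difference that was not tested, and 0.05 over the members with a mean count of at least 100 in both sexes together. Tpx2, a spindle assembly factor, averaged 93.9 ± 14.1 in HT and 74.9 ± 10.9 in WT libraries (SD, n = 10 each), a log2 difference of 0.32 (adjusted p = 0.197). Mki67, a marker of dividing cells, averaged 136 ± 41.8 in HT and 99.1 ± 26.1 in WT libraries (SD, n = 10 each), a log2 difference of 0.44 (adjusted p = 0.317). Kif20a (0.42, adjusted p = 0.268) and Kif11 (0.27, adjusted p = 0.306) are motors of cell division. Of 24 genes of the DNA damage response, in which H4 lysine 20 methylation is read, none passed and none had an unadjusted p under 0.05.

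Lysosomal and sphingolipid enzymes were more often lower. Of 44 tested, 14 were higher and 30 lower. At an unadjusted p under 0.05, 1 was higher and 9 lower, 22.7% of the list beside 12.2% of all genes. Asah1 passed, and the median was -0.02. It was -0.0073 without the 4 WT libraries that stood apart and -0.0087 after quantile normalisation. Degs1 (-0.13, adjusted p = 0.224) makes ceramide, Sgms1 (-0.15, adjusted p = 0.236) makes sphingomyelin from it, and Ugcg (-0.10, adjusted p = 0.248) makes glucosylceramide. Of 27 genes of cholesterol synthesis none passed. At an unadjusted p under 0.05, 2 were higher and 5 lower, 25.9% of the list beside 12.2% of all genes. Msmo1 (-0.24, adjusted p = 0.114) demethylates sterols, and Srebf1 (0.22, adjusted p = 0.197) is a transcription factor of lipid synthesis.

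Endothelial markers were lower for 18 of 27 and blood-brain barrier transporters for 16 of 21, with 4 and 2 lower and none higher at an unadjusted p under 0.05. These were 14.8% and 9.52% of the lists, beside 12.2% of all genes. Slco1a4, which is on both lists, was the member that passed. Flt1 (-0.20, adjusted p = 0.311) is a receptor of vascular endothelial growth factor, Ocln (-0.15, adjusted p = 0.376) is a tight junction protein, and Abcb1a (-0.14, adjusted p = 0.385) is the efflux pump P-glycoprotein. The medians were -0.08 for endothelial markers and -0.05 for transporters. Without the 3 and the 4 WT libraries that stood apart the endothelial median was -0.04 and -0.02, and that of transporters -0.03 and -0.02. The endothelial median was -0.05 without HT male 1, -0.05 without WT male 1 and -0.05 without WT male 2. Summed endothelial markers overlapped, at 32258 to 37883 in HT and 31143 to 41144 in WT libraries.

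Microglial markers were lower for 24 of 30, with 6 lower and 0 higher at an unadjusted p under 0.05, none passing and a median of -0.07. These 6 were 20% of the list, beside 12.2% of all genes. P2ry12, a nucleotide receptor of resting microglia, averaged 1209 ± 119 in HT and 1487 ± 203 in WT libraries (SD, n = 10 each), a log2 difference of -0.29 (adjusted p = 0.101). P2ry13 (-0.24, adjusted p = 0.196) and Gpr34 (-0.25, adjusted p = 0.200) are receptors of the same cells. The microglial median was -0.02 and -0.01 without the 3 and the 4 WT libraries that stood apart, -0.04 without HT male 1 and -0.05 without WT male 5. Astrocyte markers were lower for 21 of 24, with 4 lower and 0 higher at an unadjusted p under 0.05, none passing and a median of -0.04. These 4 were 16.7% of the list, and the median was -0.01 after quantile normalisation. Slc39a12 (-0.23, adjusted p = 0.120) is a zinc transporter, and Slc1a2 (-0.17, adjusted p = 0.365) is the main glutamate transporter of astrocytes. Of 30 oligodendrocyte and myelin genes, none passed and none had an unadjusted p under 0.05.

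Genes of the GABA receptor list were lower for 15 of 18, with none passing and a median of -0.05. At an unadjusted p under 0.05, 7 were lower and 1 higher, 44.4% of the list beside 12.2% of all genes. The median was -0.15 in females and -0.0046 in males, and the difference between the sexes was not tested. It was -0.03 without the 4 WT libraries that stood apart and -0.03 after quantile normalisation. It moved by more than 1.5 times on leaving out a single library, to -0.03, -0.03 and -0.08 without HT female 1, HT female 2 and HT female 4, and to -0.03 without WT female 3. Gabra4 (-0.19, adjusted p = 0.197) encodes a subunit of the chloride channel. Glutamate receptors and postsynaptic scaffolds divided about evenly. Of 42, 23 were higher and 19 lower, 4 were higher and 2 lower at an unadjusted p under 0.05, and none passed. At 14.3%, this share was near that of all genes. Grik3 (0.21, adjusted p = 0.236) is a kainate receptor subunit, and Grm5 (-0.15, adjusted p = 0.239) is a metabotropic receptor.

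Olfactory bulb markers were higher in HT for 17 of 17 tested, beside 50.7% of all genes, with none passing and a median of 0.98. At an unadjusted p under 0.05 there were 2, and at 11.8% of the list this share was near the 12.2% of all genes. Tbx21, a transcription factor of bulb projection neurons, averaged 135 ± 64.9 in HT and 71.7 ± 62.5 in WT libraries (SD, n = 10 each), a log2 difference of 1.74 (adjusted p = 0.405). The level of the 4 core markers averaged 8.999 ± 0.745 in HT and 7.38 ± 2.24 in WT libraries (SD, n = 10 each; exact two-sided permutation p = 0.0536). The list median was 0.15 without the 3 WT libraries low in these markers, and without all 4 that stood apart it was -0.0019. Its part in the differences above was not tested beyond the values given with them.

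**Figure D4:**
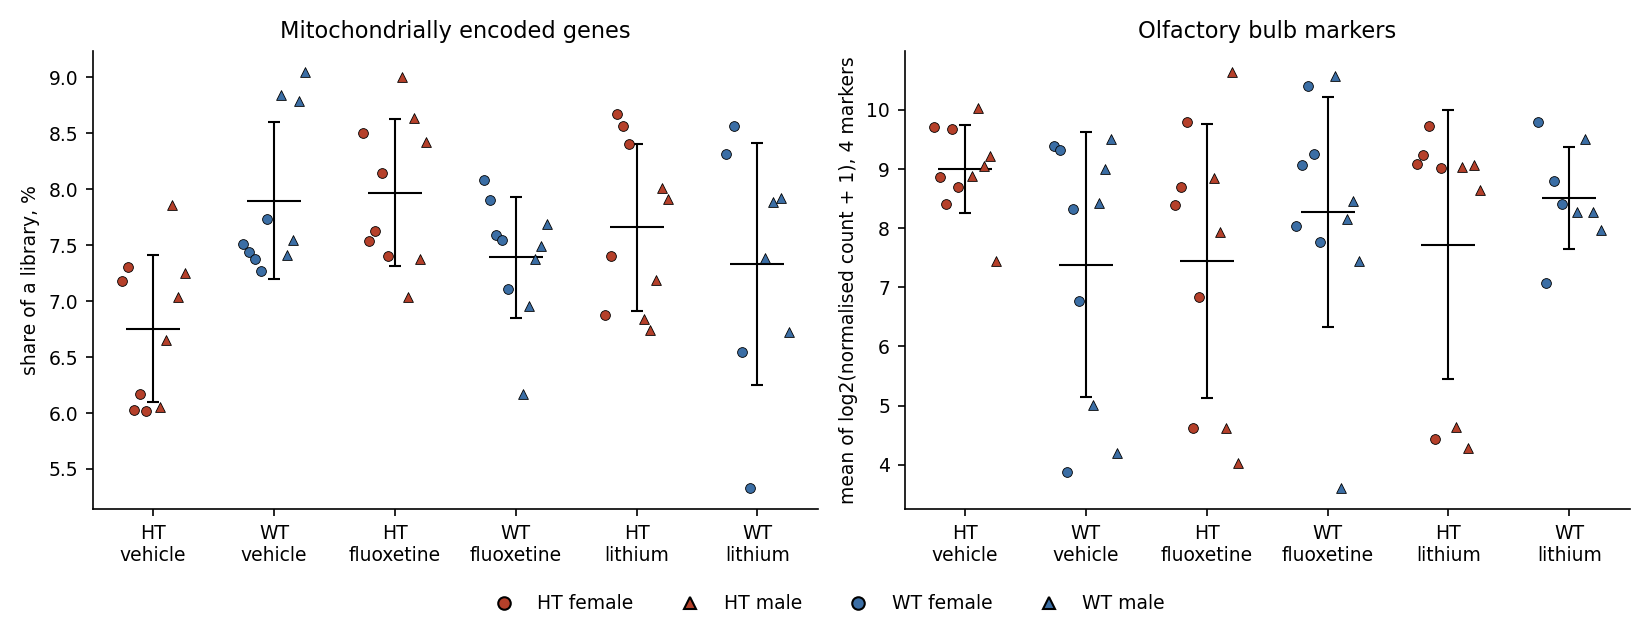
Share of a library on mitochondrially encoded genes in percent (left, vertical axis not starting at 0) and mean log2(normalised count + 1) of 4 olfactory bulb markers (right), by library, with HT left of WT for each treatment. Circles are females, triangles are males, and bars give the mean ± SD of 10 libraries, or 8 for WT lithium. Under vehicle the share averages 6.75% in HT and 7.90% in WT libraries, and 3 WT vehicle libraries have bulb marker levels of at most 5.01.

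Within females, 2 genes passed and both fell, 0.012% of those tested. Slco1a4 fell by 0.42 on the log2 scale and Cyb5b, a cytochrome of the outer mitochondrial membrane, by 0.17 (adjusted p = 0.0354 for both). On the 54 libraries with recovered counts edgeR called 2 genes in females, both higher and 0 of them shared with these, and DESeq2 called 5, all lower, 2 of them shared. In males Slco1a4 differed by -0.28 and Cyb5b by -0.01. No gene passed in males by limma, while DESeq2 called 1 and edgeR 0. Of 16669 genes, 996 had an unadjusted p under 0.05 in males by limma (478 higher, 518 lower). In females 764 were higher and 1169 lower at that threshold. Pisd-ps1 had the smallest p in males (0.83, adjusted p = 0.0696). In the test of the difference between the sexes no gene passed by limma, 1012 of 16669 had an unadjusted p under 0.05, and DESeq2 called 1 and edgeR 0. Tep1, a telomerase-associated protein, differed by -0.09 in females and 0.47 in males (adjusted p of the difference = 0.797).

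The same genotypes were also compared under fluoxetine and lithium, in libraries that share none with the vehicle comparison. There 13.9% of genes under fluoxetine and 10.1% under lithium had an unadjusted p under 0.05. Pisd-ps1 averaged 2682 ± 324 in HT fluoxetine and 1628 ± 375 in WT fluoxetine libraries (SD, n = 10 each), a log2 difference of 0.75 (adjusted p = 0.000474). It averaged 2498 ± 367 in HT lithium (SD, n = 10) and 1112 ± 257 in WT lithium libraries (SD, n = 8), a difference of 1.2 (adjusted p = 3.75e-09). It thus rose in HT under both drugs as well.

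P4ha3 differed by 0.32 under fluoxetine and 0.27 under lithium, and Matn2 by 0.17 and 0.12. Slco1a4 differed by 0.12 under fluoxetine and -0.11 under lithium, and Asah1 by 0.03 and -0.0025. Of the 12 higher genes, 11 kept their sign under fluoxetine and 9 under lithium. Of the 12 lower genes, 3 and 7 did. Over all genes the share with the same sign was 52.5% under fluoxetine and 43.3% under lithium.

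**Figure D5:**
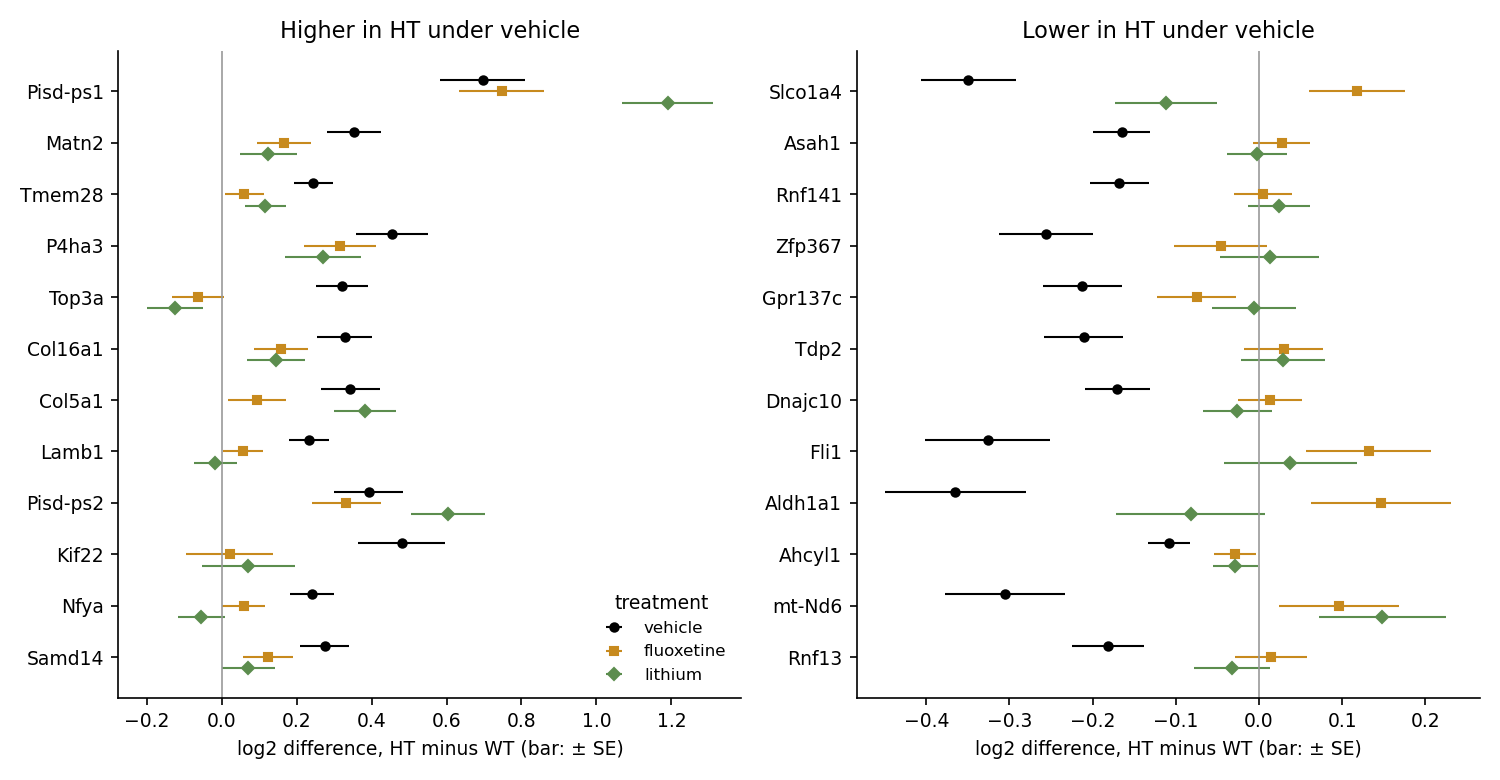
Log2 difference, HT minus WT (horizontal axes), of the 12 higher (left) and 12 lower (right) genes of smallest p under vehicle, for vehicle (circles), fluoxetine (squares) and lithium (diamonds), with bars of ± SE. The vehicle values chose the genes. Pisd-ps1 lies right of 0 under all 3 treatments.

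Whether the genotype difference under vehicle differed from its mean under the drugs was tested for each gene. None passed by limma, where 2046 of 16669 genes had an unadjusted p under 0.05, or by DESeq2 or edgeR. The smallest adjusted p was 0.0888, shared by Slco1a4 (-0.35), mt-Nd6 (-0.43) and Top3a (0.42). Mitochondrially encoded genes had a median log2 difference of -0.31 under vehicle, 0.10 under fluoxetine and 0.09 under lithium. Their share averaged 7.97% ± 0.657 in HT fluoxetine and 7.39% ± 0.543 in WT fluoxetine libraries (SD, n = 10 each). It averaged 7.66% ± 0.746 in HT lithium (SD, n = 10) and 7.33% ± 1.08 in WT lithium libraries (SD, n = 8). The collagen list had medians of 0.16, 0.09 and -0.09 under vehicle, fluoxetine and lithium.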

How the data were processed

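Prefrontal cortex RNA of 58 mice had been sequenced, and groups were taken from the labels. The submitters' processing notes name Salmon 0.11.2, R 3.6.0, DESeq2 1.19.11 and GRCm38. The authors deposited a normalised signal per gene and library, in 1 table of 18088 genes. Values were whole multiples of 1 step per library in 100% of cases (tolerance 0.01), as counts divided by a size factor would be. No pair of replicates agreed within sampling noise (ratio of their difference to it 5.43 to 30.0 over 40 pairs). Whole reads were taken as recovered in 54 libraries. In the other 4, HT vehicle female 2, HT vehicle male 1, HT vehicle male 5 and HT lithium male 3, the unit check could not decide. The design foresaw tests for counts and for normalised values, and the second was used.

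limma 3.58.1 (R 4.3.3) fitted log2(value + 1) with 12 group coefficients over all 58 libraries and a variance trend, for genes with a mean of at least 10. The vehicle comparison averaged both sexes, with Benjamini-Hochberg adjustment over all genes and a threshold of 0.05. A fold is on the log2(value + 1) scale, where the added 1 shrinks differences of low counts. Differences compare means of logs, so they can exceed the ratio of mean counts where libraries spread widely, as for Tbx21. Library measures were compared with exact permutation tests. Of the gene IDs, 18077 had a symbol and 11 had none (GENCODE release 21 annotation, GRCm38). Promoters came from RefSeq.

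Named genes were Kmt5b, those that passed, the 12 higher and 12 lower of smallest p with the same sign in both sexes, up to 4 members of each list described, and up to 5 each way for the sexes and drug contrasts. Predicted genes were counted and not named. A few list members of small p are not reported here. The members and the 42 gene lists were chosen with earlier results of these data known. Alternatives were quantile normalisation, other filters and pseudocounts, covariates, array weights, a fit on vehicle libraries, edgeR 4.0.16 and DESeq2 1.42.0 on recovered counts, and leaving out libraries. The limma fit was tested on simulated data first, and edgeR and DESeq2 were not.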

Additional observations from a re-analysis of the deposited data

Results flagged for a closer look

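In 120 groups of 5 libraries, 5 held a library far from the other 4, where chance gives about 1 in 20. The striatal marker level of WT female 5 was 9.07, against 7.996 to 8.25 in the other WT females. Asah1 had a normalised count of 1417 in WT female 4, against 1559 to 1584 in the other WT females. HT female 3 had 103.3 counts of P4ha3, against 85.1 to 88.9 in the other HT females, and 427.2 counts of Zfp367, against 547 to 581. Lamb1 had 641.8 counts in HT male 2, against 684 to 700.0 in the other HT males.

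For the share of mitochondrially encoded genes, the fluoxetine and lithium libraries were pooled within genotype and sex. The genotype difference under vehicle minus that in the pooled drug libraries was -1.59 percentage points (permutation test, 100000 resamples, p = 0.000290). Vehicle and drug labels were exchanged within genotype and sex, so the null of this test is no drug effect in either genotype. For the olfactory bulb marker level the same contrast was 2.41 (p = 0.0213, permutation test). The level averaged 8.999 in HT vehicle and 7.38 in WT vehicle libraries, 7.44 in HT fluoxetine and 8.28 in WT fluoxetine libraries, and 7.72 in HT lithium and 8.51 in WT lithium libraries.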

How the results depend on the processing

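The 8 genes passing under vehicle became 4 with quantile normalisation or the olfactory bulb level as covariate, and 1 with vehicle libraries alone, the mitochondrial share as covariate, or edgeR with TMM or with DESeq2 size factors. They became 31 with array weights (12 higher, 19 lower) and, in alternatives chosen after seeing the data, 29 with the exon length slope as covariate (13 higher, 16 lower), 2 without the 3 WT libraries, 0 without the 4, and 0 by limma on the 54 libraries, which hold 7 HT vehicle libraries. limma on the 54 had 722 higher and 901 lower genes at an unadjusted p under 0.05. DESeq2 called 7. Leaving out 1 library gave 2 to 25. The cause was not tested.

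The 2 genes passing in females became 0 with quantile normalisation, no variance trend, vehicle libraries alone, array weights, the striatal level, mitochondrial share or exon length slope as covariate, limma on 54 libraries, and without the 3 or 4 WT libraries. DESeq2 called 5 in females, and leaving out 1 library gave 0 to 4. The 0 in males became 2 with vehicle libraries alone or array weights and 1 with the olfactory bulb covariate or DESeq2 (0 to 1 on leaving out 1 library). The 0 for the difference between sexes became 1 by DESeq2 (0 to 1). The 0 for vehicle against the drugs became 100 with array weights (0 to 4), and has no fit on the vehicle groups only.

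Under a replicate block, 2 genes passed under vehicle and 0 in females. The labels do not say what same-numbered libraries shared beside the number. The correlation of their deviations ran from -0.23 to 0.34 and was over 0.1 in 3 of 10 pairs. It was highest with the own number for 6 of 20 libraries.

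Of 934 values of 24 named genes, 742 kept direction and side of the threshold, 124 no longer passed, 68 newly passed and 0 changed sign. By definition the 124 could come only from the named genes that had passed, and the 68 only from those that had not. Outside the fits leaving out 1 library, Pisd-ps1 passed in 17 of 19 settings and Slco1a4 in 13. Tmem28 passed in 10 of these settings, Matn2 and Rnf141 in 9, Asah1 in 8, and P4ha3 in 8 of 18. The olfactory bulb list median was -0.00191 without the 4 WT libraries. The olfactory bulb level difference was 1.16 to 1.90 on leaving out 1 library (exact permutation p 0.0243 to 0.106), and the striatal difference -0.0160 to 0.119, with -0.000313, -0.00158 and -0.00617 without HT female 5, HT male 1 and WT female 2. Precision is limited by 10 mice a group: the median SE of a log2 difference was 0.0651.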
